A study of Mus musculus with 18 samples.

Results

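Nuclear receptors are transcription factors that bind DNA and, in most cases, change their activity when a small lipophilic hormone or metabolite binds them. The oestrogen and glucocorticoid receptors act mainly as pairs of the same protein, whereas thyroid hormone and retinoic acid receptors pair with a retinoid X receptor on repeated copies of a short half-site, AGGTCA. In astrocytes and their precursors, thyroid hormone, retinoic acid and glucocorticoids are known regulators of maturation, and oestrogen and glucocorticoid signalling are known to temper inflammatory responses.

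The 9 nuclear receptor genes described here were Esr1 (oestrogen receptor alpha), Nr3c1 (glucocorticoid receptor), Thra and Thrb (thyroid hormone receptors alpha and beta), Rxra and Rxrg (retinoid X receptors alpha and gamma), Rarb and Rarg (retinoic acid receptors beta and gamma) and Nr2f1 (COUP-TFI, an orphan receptor of neural progenitors). They were chosen by name from a table of 54838 genes, and Esr1 and Rxrg were selected on their lower values with TNF in these same libraries. The TNF differences of all 9 genes are therefore given as a description with no test. Comparisons without TNF were tested for the other 7, and for Esr1 only between NSPs and 1 week, since the untreated libraries of 24 h and 72 h belong to the TNF differences that chose it. Rxrg was tested in none, since it was chosen on its 24 h libraries and passed the filter on low counts through them alone.

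Ribosome-depleted total RNA had been sequenced from 18 libraries in 6 conditions of 3 replicates each. All cells came from wild type C57BL/6J embryos at embryonic day 14, as neural stem cells of the ventricular zone. Neurospheres (NSPs, floating aggregates of these cells) grew with EGF at 20 ng/ml and 1% B27 lacking vitamin A, and differentiation replaced this medium by DMEM with 10% foetal bovine serum on poly-L-ornithine, so that the change of medium and the differentiation cannot be told apart. Cells were collected as NSPs and after 24 h, 72 h or 1 week of differentiation, and parallel cultures of the first 2 times received TNF (50 ng/ml). The labels do not say which libraries came from separate embryos, so that p-values measure only the spread between these libraries, which may be technical.

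Counts per library summed to between 12509693 and 22549627, and levels below are CPM, scaled by edgeR's TMM factors. Replicate 1 stood apart from replicates 2 and 3 in 3 conditions: the chi-square per degree of freedom between replicate 1 and either other library was 40.5 to 46.4 in NSPs, 43.7 to 54.6 at 24 h with TNF and 48.5 to 55.4 at 72 h with TNF, against 3.71, 8.10 and 11.1 between the other two. NSP replicate 1 had the lowest CPM of the 3 NSP libraries in all 9 receptor genes, whereas it was the lowest for 39.4% of the 20067 tested genes. Nfkbia, a direct target of TNF signalling, rose with TNF by 2.44 at 24 h (adjusted p = 6.9e-08) and 2.80 at 72 h (adjusted p = 1.2e-08) on the log2 scale. Of the 9 astrocyte markers, 3 rose, 3 fell and 3 were not called from NSPs to 72 h: mean Gfap was 27.1 CPM before differentiation, 899 CPM after 24 h, 2432 CPM after 72 h and 63.4 CPM after 1 week, while Aldoc averaged 581 CPM after 72 h against 1181 CPM before. At 1 week, 1 was called higher and 5 lower than in NSPs, and 6 lower than at 72 h. The summed CPM of the 9 was 5240 to 5463 in NSPs, 6203 to 8493 at 72 h, 3695 to 5115 at 72 h with TNF and 3501 to 3631 at 1 week. The part of these markers in the receptor values at any stage was not tested. The 6 microglia markers summed to at most 3.88 CPM and the 8 vascular and fibroblast markers to at most 6.42 CPM in any library, while the 6 neuron markers summed to 1436 to 2093 CPM, nearly all of it Map2, which was not called at any stage against NSPs. Of the 6, 4 were called lower than in NSPs and 0 higher both at 72 h and at 1 week, among them Dcx (5.22 CPM in NSPs, with no read at 1 week). In bulk RNA, fewer cells of a type and less RNA per cell cannot be told apart.

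Positions below are GRCm38, with gene models of GENCODE M21. Esr1 lies at chr10:4611593-5005614 on the plus strand, Thra at chr11:98740638-98769006 (plus), Thrb at chr14:17660261-18038090 (plus), Rxra at chr2:27676440-27762957 (plus) and Rxrg at chr1:167598384-167639623 (plus). Rarb lies at chr14:16430839-16819156 on the minus strand, Rarg at chr15:102234938-102257517 (minus) and Nr2f1 at chr13:78188973-78199757 (minus). Exons of Top2b (topoisomerase II beta, mean 413 CPM) cover 34.1% of Rarb's exon length on the opposite strand. The libraries kept the strand, but whether the authors' counting used it is not stated, so the counts of Rarb are uncertain. The same holds for 5.7% of Thra's exon length (Nr1d1, mean 15.8 CPM) and 2.4% of Nr2f1's (A830082K12Rik, mean 23.7 CPM).

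Because most of these receptors bind AGGTCA-like half-sites themselves (Nr3c1 binds another sequence), the 250 bases upstream of their RefSeq transcription starts (GRCm38.p6) were searched on both strands. There were 13 windows for 7 of the genes, and none for Nr3c1 and Thra. Direct repeats (DR) were searched with each copy as the half-site, allowing also a G in place of its leading A and a T in place of the G before its T. A direct repeat with 5 bases between the copies (DR5), the element through which retinoic acid receptors are best known to act, was found in Rarb, and in 0.0883% of all 32851 windows. The match lies 53 to 37 bases before the start, inside an annotated exon of another Rarb transcript. Single AGGTCA half-sites, which may overlap a direct repeat, were found in 4 of the 13 windows and in 14.0% of all windows. The stretches are shown in the direction of the gene with the match in capitals, because the results below turn on these receptors.
Rarb, chr14:16575507-16575535, minus strand, DR5: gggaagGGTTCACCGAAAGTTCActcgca
Rxrg, chr1:167618165-167618194, plus strand, 88 bases before the start: atcggggttgaaAGGTCAgctgaaagcttc
Rxra, chr2:27709193-27709222, plus strand, reverse complement 87 bases before the start: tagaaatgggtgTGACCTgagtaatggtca
Rxra, chr2:27709232-27709261, plus strand, 48 bases before the start: gggtggcaggaaAGGTCAgtcactctctgt
Thrb, chr14:17660764-17660793, plus strand, 184 bases before the start: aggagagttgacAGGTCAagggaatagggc
Rarg, chr15:102257730-102257759, minus strand, reverse complement 225 bases before the start: agcccaggacacTGACCTctgccagctctg
No window of these genes held a DR1, DR2 or DR4 (0.164%, 0.174% and 0.067% of all windows), the oestrogen response element GGTCANNNTGACC (0.0639%), a glucocorticoid response element (0.0639%) or a kappaB site (3.9%). A match is a run of letters and not a bound site.

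Per exon length, the receptors spanned a wide range. Averaged over the 6 conditions, Thra stood at 47.5 RPKM (reads scaled by exon length and library size) and Nr3c1 at 30.4 RPKM. Rxra followed at 10.8 RPKM, Nr2f1 at 10.3 RPKM and Thrb at 7.46 RPKM. Rarg (1.24 RPKM), Rarb (0.591 RPKM), Esr1 (0.393 RPKM) and Rxrg (0.181 RPKM) were low, so that thyroid hormone receptor alpha and the glucocorticoid receptor were the most abundant of the 9 transcripts. All 9 genes passed edgeR's filter on low counts, Rxrg only through its values at 24 h.

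**Figure D1:**
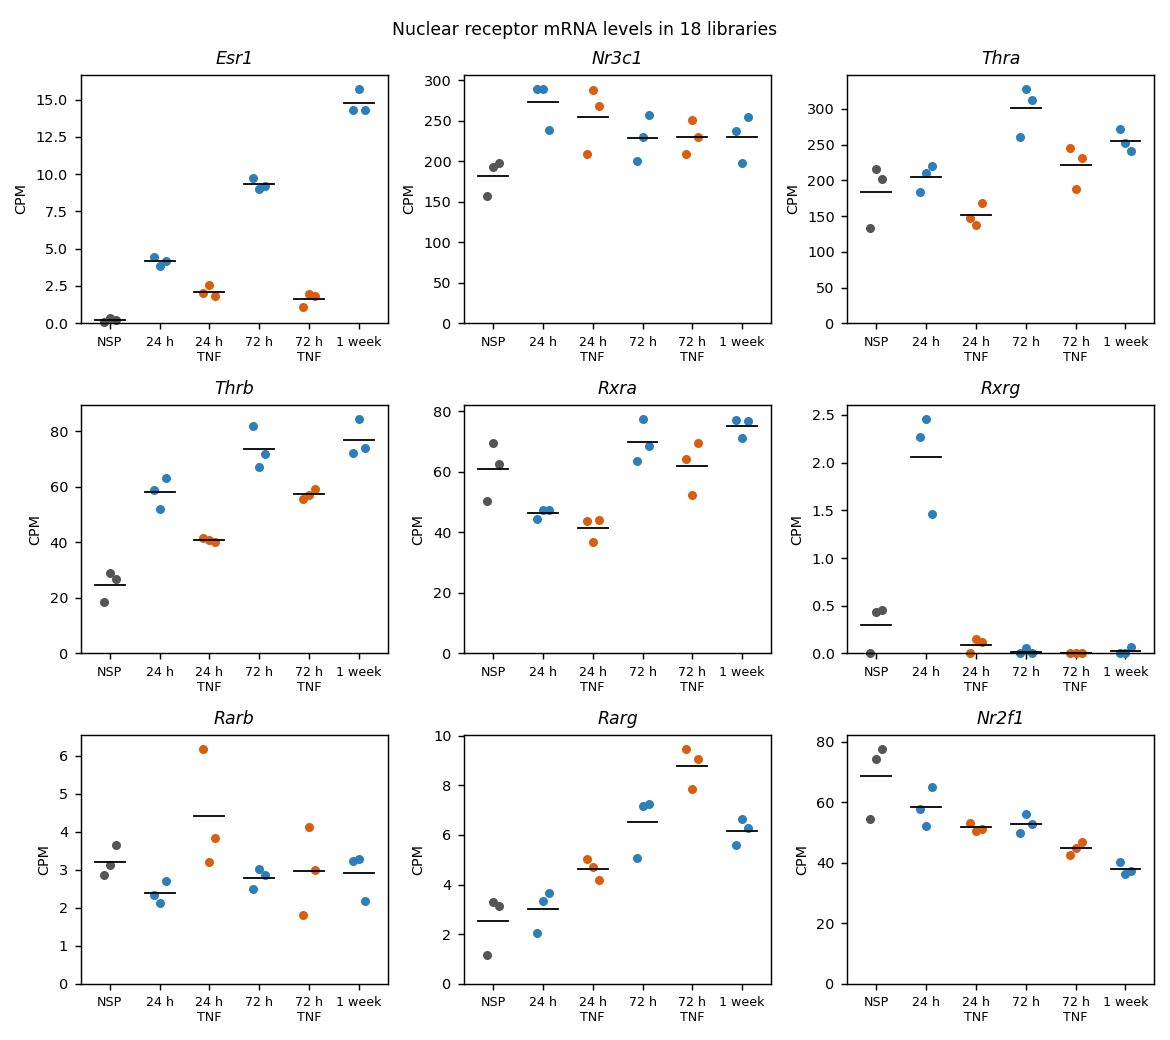
CPM of the 9 receptor genes (vertical axes, linear and starting at 0) in each of the 18 libraries, by condition (horizontal axes); points are libraries, grey for NSPs, blue without and orange with TNF, and lines are means of 3. Esr1 climbs from below 0.33 CPM in NSPs to 14.3 CPM or more at 1 week, and Rxrg is above 1 CPM only at 24 h without TNF.

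The first question was how the receptors changed as NSPs differentiated without TNF. Against NSPs, 2 of the 7 genes other than Esr1 and Rxrg were called higher and 1 lower at 24 h (edgeR quasi-likelihood test, adjusted p under 0.05), beside 27.2% and 25.5% of all tested genes. At 72 h, 3 of the 7 were higher and 1 lower, beside 28.1% and 27.2%, and at 1 week, with Esr1, 4 of 8 were higher and 1 lower, beside 29.6% and 29.1%. From 24 h to 72 h, 3 of the 7 were higher (12.2% of all genes). From 72 h to 1 week, 1 of the 7 was lower (2.68% of all genes were higher and 3.96% lower).

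Esr1 rose from NSPs to 1 week. Its NSP libraries held 1, 6 and 4 reads, or 0.0635, 0.329 and 0.228 CPM. The values were 4.46, 3.86 and 4.16 CPM at 24 h, 9.76, 9.02 and 9.19 CPM at 72 h, and 14.3, 15.7 and 14.3 CPM at 1 week. Each later stage lay wholly above the one before. The log2 fold change from NSPs to 1 week was 6.07 ± 0.32 (SE, adjusted p = 2.2e-11). As a description, the log2 differences from NSPs were 4.24 ± 0.33 at 24 h and 5.41 ± 0.32 at 72 h, that between 24 h and 72 h was 1.17 ± 0.23, and that between 72 h and 1 week was 0.66 ± 0.21. Of 6 tested genes known as oestrogen targets in other tissues, Greb1 rose by 1.27 from NSPs to 1 week, Igfbp4 fell by 6.22 and Ccnd1 (cyclin D1, which also follows proliferation) fell by 3.48, while the other 3 were not called. Of all tested genes, 29.6% were called higher and 29.1% lower in that comparison.

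Thrb, the thyroid hormone receptor that is the more restricted of the pair, also rose. It stood at 18.4, 28.9 and 26.9 CPM in NSPs, 58.7, 51.9 and 63.1 CPM at 24 h, 81.8, 67.0 and 71.8 CPM at 72 h, and 72.1, 84.4 and 73.9 CPM at 1 week. All differentiated libraries lay above all NSP libraries, and those of 72 h and 1 week overlapped. The log2 fold changes from NSPs were 1.22 ± 0.14 (adjusted p = 1.5e-06), 1.57 ± 0.14 (adjusted p = 3.8e-08) and 1.63 ± 0.14 (adjusted p = 2.0e-08). The step from 24 h to 72 h was 0.34 ± 0.14 and did not pass (adjusted p = 0.0815).

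Thra, which most neural cells carry, moved later and less. Its values were 133.0, 216 and 202 CPM in NSPs, 184, 209.8 and 220.4 CPM at 24 h, 261, 328 and 312 CPM at 72 h, and 271, 252 and 240.4 CPM at 1 week. NSPs and 24 h overlapped (log2 difference 0.16 ± 0.16, adjusted p = 0.425), and 72 h lay wholly above both. Thra rose by 0.71 ± 0.16 from NSPs to 72 h (adjusted p = 0.00098), by 0.55 ± 0.16 from 24 h to 72 h (adjusted p = 0.0156) and by 0.47 ± 0.16 from NSPs to 1 week (adjusted p = 0.0169). The last call was lost without NSP replicate 1 or 1 week replicate 1, where the lowest value was 0.28, and the second without 24 h replicate 1, 72 h replicate 2 or the 72 h library numbered 4.

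Rarg, a retinoic acid receptor, rose between 24 h and 72 h. It stood at 1.14, 3.29 and 3.13 CPM in NSPs, 2.04, 3.35 and 3.67 CPM at 24 h, 5.07, 7.18 and 7.26 CPM at 72 h, and 5.61, 6.63 and 6.27 CPM at 1 week. The first replicates of NSPs and of 24 h were the low ones. The log2 fold change from NSPs was 1.36 ± 0.29 at 72 h (adjusted p = 0.00063) and 1.28 ± 0.29 at 1 week (adjusted p = 0.001), and from 24 h to 72 h it was 1.11 ± 0.29 (adjusted p = 0.0087), a call that was lost without 24 h replicate 1. Without NSP replicate 1 the changes from NSPs were 1.02 and 0.93, and both passed.

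Rarb, whose own gene is a classical retinoic acid target through a DR5, passed edgeR's test in 0 of the 5 untreated comparisons (0 at an unadjusted p under 0.05 and 0 by DESeq2). Its values were 2.86, 3.13 and 3.64 CPM in NSPs, 2.34, 2.12 and 2.69 CPM at 24 h, 2.50, 3.01 and 2.86 CPM at 72 h, and 3.22, 3.29 and 2.18 CPM at 1 week. The largest difference was -0.44 ± 0.30 on the log2 scale, at 24 h (adjusted p = 0.23), where the libraries lay below those of NSPs without overlap.

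Nr3c1, the glucocorticoid receptor (chr18:39410545-39519421, minus strand), rose early. It stood at 157, 193 and 198 CPM in NSPs and at 289.7, 289.3 and 239 CPM at 24 h, a log2 change of 0.58 ± 0.15 (adjusted p = 0.003). At 72 h the values were 201, 229 and 257 CPM, and at 1 week 238, 198 and 255 CPM. All of these lay above the NSP libraries, 1 of them by less than the rounding, with log2 differences of 0.33 ± 0.15 (adjusted p = 0.0657) and 0.34 ± 0.15 (adjusted p = 0.0573) that did not pass. The former was called in 2 of 14 alternatives and the latter in 5, among them both fits with a replicate block.

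Rxra, the retinoid X receptor that serves as the common partner, dipped at 24 h. It stood at 50.3, 69.6 and 62.6 CPM in NSPs, 44.2, 47.4 and 47.3 CPM at 24 h, 63.4, 77.4 and 68.5 CPM at 72 h, and 77.2, 71.2 and 76.6 CPM at 1 week. The fall to 24 h was -0.40 ± 0.13 on the log2 scale (adjusted p = 0.0196), and the rise from 24 h to 72 h was 0.59 ± 0.13 (adjusted p = 0.0031). The first call was lost in 5 of 14 alternatives, among them those without NSP replicate 2, NSP replicate 3 or 24 h replicate 1. Against NSPs, neither 72 h (0.20 ± 0.13, adjusted p = 0.219) nor 1 week (0.30 ± 0.13, adjusted p = 0.0605) differed past the threshold, the latter being called in 2 of 14 alternatives.

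Rxrg, the retinoid X receptor with the narrowest known expression, was counted at 0, 8 and 8 reads in NSPs and at 30, 44 and 18 reads at 24 h. Only 1 read was found at 72 h (0, 1 and 0) and 1 at 1 week (0, 0 and 1). On the CPM scale this was 0, 0.439 and 0.455 in NSPs and 2.27, 2.46 and 1.47 at 24 h, with no overlap. The log2 difference of 24 h from NSPs was 2.73 ± 0.58, or 2.20 without NSP replicate 1. Between 24 h and 72 h the reads numbered 92 against 1, a ratio of 101 with an exact 95% counting interval of 17.7 to 4036. The ratio of NSPs to 72 h was 14.8 (interval 2.30 to 621) and that of NSPs to 1 week 17.1 (interval 2.66 to 717), on 16 reads against 1. All of these are given as a description. Intervals cover counting error only. Oligodendrocyte lineage markers moved over the same stages: the summed CPM of 7 such markers was 526 to 582 in NSPs, 144 to 161 at 24 h, 32.9 to 39.8 at 72 h and 47.6 to 49.8 at 1 week, with Mog at or near 0. Their part in the values of Rxrg was not tested.

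Nr2f1 fell over the week. Its values were 54.3, 74.3 and 77.5 CPM in NSPs, 57.7, 52.2 and 64.9 CPM at 24 h, 49.6, 56.2 and 52.6 CPM at 72 h, and 40.3, 36.3 and 37.3 CPM at 1 week. The 1 week libraries lay below all others. The log2 change from NSPs was -0.24 ± 0.13 at 24 h (adjusted p = 0.12), -0.38 ± 0.13 at 72 h (adjusted p = 0.016) and -0.86 ± 0.13 at 1 week (adjusted p = 1.5e-05), and that from 72 h to 1 week was -0.47 ± 0.13 (adjusted p = 0.0298). The call at 72 h was lost in 6 of 14 alternatives, among them those without NSP replicate 2, NSP replicate 3 or 72 h replicate 1. That from 72 h to 1 week was lost in 8, among them those without 72 h replicate 2, the 72 h library numbered 4 or any 1 library of 1 week. Without NSP replicate 1 the difference at 24 h was -0.39 and was called.

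Without NSP replicate 1, the library that stood apart, the differences of Esr1 from NSPs were 3.85, 5.02 and 5.68 at the 3 times, the last of them called, and those of Thrb 1.05, 1.39 and 1.46, all called. Nr3c1 (0.48) and Rxra (-0.52) also kept their calls at 24 h, and Thra (0.52) at 72 h.

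**Figure D2:**
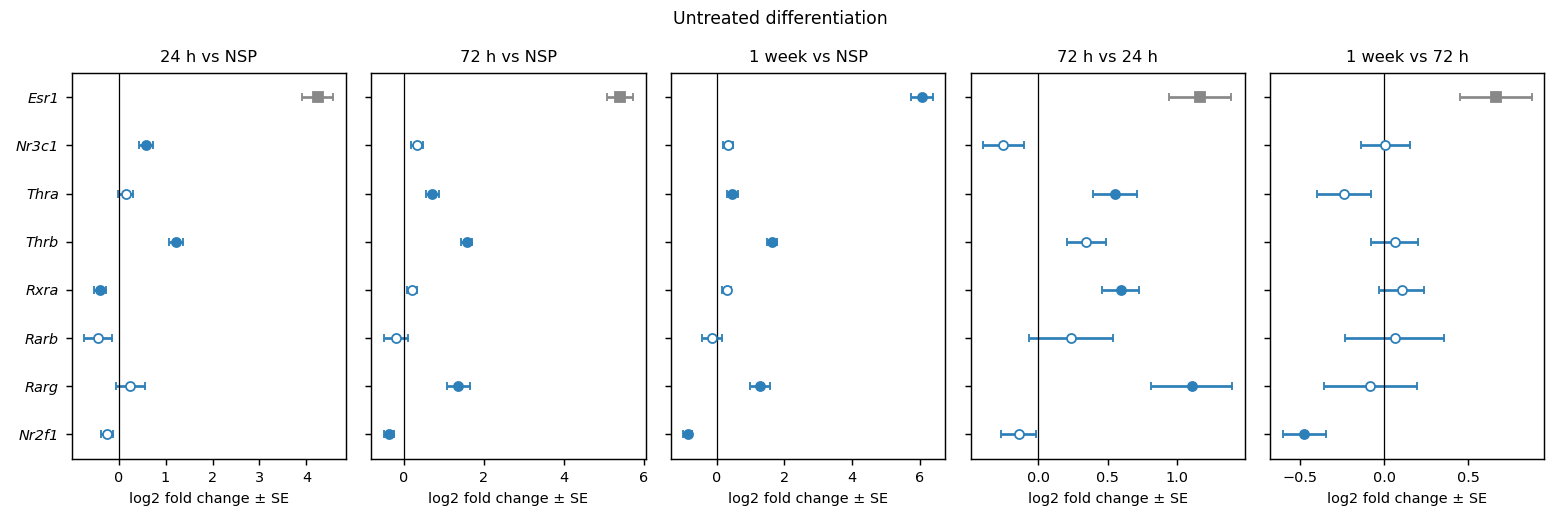
Log2 fold changes (horizontal axes, different ranges) of 8 receptor genes in 5 comparisons without TNF; points are edgeR estimates, bars are SE, filled circles had an adjusted p under 0.05, open circles did not, and grey squares (Esr1) were not tested. Rxrg, which was not tested, is left out; Esr1 lies farthest to the right in each comparison with NSPs, at 6.07 at 1 week.

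The second question was how receptor levels with TNF compared with those at the same time without it. As a description, at 24 h the libraries with TNF lay wholly below those without it in 5 genes (Esr1, Thra, Thrb, Rxra and Rxrg) and wholly above in 2 (Rarb and Rarg), beside 10.1% and 10.7% of all tested genes. At 72 h they lay below in 4 (Esr1, Thra, Thrb and Nr2f1) and above in 1 (Rarg), beside 13.4% and 12.7%. Since these values chose Esr1 and Rxrg, and the other genes were listed with earlier results known, nothing is read from the counts.

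Esr1 had the largest difference at 72 h among the genes with a fold. It stood at 2.02, 2.54 and 1.83 CPM with TNF at 24 h, and at 1.07, 1.97 and 1.81 CPM with TNF at 72 h. The log2 difference from the untreated libraries was -0.97 ± 0.25 at 24 h and -2.52 ± 0.24 at 72 h, or -2.29 without 72 h TNF replicate 1. The TNF libraries of both times overlapped each other and lay above NSPs, while the untreated ones were higher at 72 h than at 24 h.

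Rxrg was counted at 0, 2 and 2 reads at 24 h with TNF, against 30, 44 and 18 reads without it. The pooled ratio was 24.5, with a 95% counting interval of 9.26 to 91.9. At 72 h it was at 0 in all 3 TNF libraries and at 1 read in all without it, so no fold is given. Of the 7 oligodendrocyte lineage markers, 1 was called lower with TNF at 24 h and 2 higher at 72 h. The 7 markers summed to 100.3 to 150 CPM at 24 h with TNF and, at 72 h, to 63.4 to 108 CPM with TNF. Their part in the difference of Rxrg was not tested.

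Both thyroid hormone receptors were lower with TNF at both times. Thra stood at 147, 138 and 168 CPM at 24 h and 245, 188 and 231 CPM at 72 h, with log2 differences of -0.44 ± 0.16 and -0.44 ± 0.16. Thrb stood at 41.6, 40.9 and 40.2 CPM at 24 h and 55.4, 57.2 and 59.3 CPM at 72 h, with log2 differences of -0.50 ± 0.14 and -0.36 ± 0.14. In neither gene did TNF and untreated libraries of a time overlap. Without replicate 1 of the TNF libraries the differences were -0.44 and -0.52 for Thra and -0.53 and -0.33 for Thrb.

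Rarb and Rarg were the only genes of the 9 with higher means with TNF at 24 h. Rara, a retinoic acid receptor outside the 9, had lower means with TNF and was called at neither time. Its mean was 8.16 CPM without and 5.65 CPM with TNF at 24 h, where the libraries did not overlap. At 72 h the means were 5.40 and 3.84 CPM, with overlap. Rarg stood at 5.04, 4.70 and 4.19 CPM with TNF at 24 h and 9.47, 7.83 and 9.07 CPM with TNF at 72 h, with log2 differences of 0.62 ± 0.30 and 0.43 ± 0.27, or 0.53 and 0.38 without replicate 1 of the TNF libraries. Rarb stood at 6.17, 3.21 and 3.83 CPM at 24 h, where the difference was 0.89 ± 0.30, or 0.55 without 24 h TNF replicate 1. At 72 h its values of 1.80, 4.12 and 3.00 CPM enclosed the untreated ones (0.09 ± 0.29).

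The other receptors differed little. Nr3c1 stood at 209.1, 287 and 268 CPM at 24 h and 209.5, 251 and 230.1 CPM at 72 h with TNF, overlapping the untreated libraries at both times (log2 differences -0.10 ± 0.15 and 0.01 ± 0.15). Rxra stood at 43.6, 36.8 and 44.0 CPM at 24 h, the highest of them just under the lowest untreated one of 44.2 CPM (-0.16 ± 0.14), and at 64.2, 52.2 and 69.4 CPM at 72 h (-0.17 ± 0.13). Nr2f1 stood at 53.2, 50.6 and 51.2 CPM at 24 h (-0.17 ± 0.13) and at 42.5, 45.0 and 46.9 CPM at 72 h (-0.24 ± 0.13). Of the 9 astrocyte markers, Kcnj10 (433 to 206 CPM) and Aldoc (891 to 567 CPM) fell with TNF at 24 h and 0 rose. At 72 h, Gfap (-2.31), S100b (-1.64) and Aldoc (-1.57) fell with TNF on the log2 scale and 6 were not called, among them Aldh1l1, whose TNF libraries lay wholly above the untreated ones (means of 12.3 and 8.14 CPM). The call of Gfap was lost without 72 h replicate 2, 72 h TNF replicate 2 or 72 h TNF replicate 3, and the difference was -3.44 without 72 h TNF replicate 1. The part of these markers in the receptor values was not tested.

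**Figure D3:**
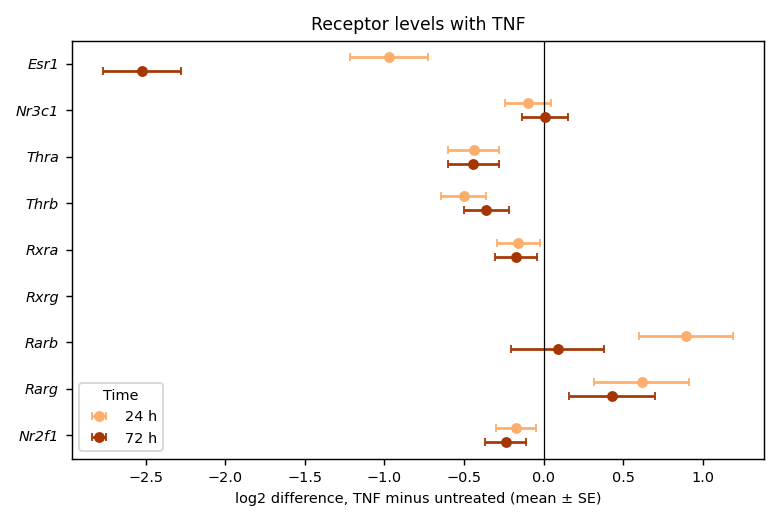
Log2 difference between libraries with and without TNF (horizontal axis; edgeR estimate and SE derived from its fit to all 18 libraries, 3 libraries a side) for the receptor genes at 24 h (light) and 72 h (dark). Rxrg is left out, since it had at most 2 reads in any TNF library; Esr1 lies farthest to the left, at -2.52 at 72 h, and Rarb farthest to the right, at 0.89 at 24 h.

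The rest of the family was compared in the same fit. Of 40 other nuclear receptor genes, 27 passed the filter. Against NSPs, 7 rose and 4 fell by 72 h, or 25.9% and 14.8% of the 27, beside 28.1% and 27.2% of all tested genes. Among the largest rises were those of Rora (1.70 ± 0.16 on the log2 scale) and Nr1d2, a clock repressor (1.10 ± 0.15). The largest falls were in Esrrb, a pluripotency factor (-4.78 ± 0.51, 7.10 to 0.244 CPM), Nr5a2 (-3.31 ± 0.55) and Nr4a1, an immediate early gene (-1.59 ± 0.51). Without NSP replicate 1, which held the highest values of Esrrb and Nr5a2 (12.2 and 8.12 CPM), these were -4.14, -2.27 and -1.34, and the last was not called, nor was it without 72 h replicate 1. Nr5a2 was at -4.01 without the 72 h library numbered 4. Nr3c2, the mineralocorticoid receptor, which binds glucocorticoids too, rose by 1.10 ± 0.18, with an adjusted p of 3.9e-05. Neither of the close relatives Rara and Rxrb was called at 72 h.

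With TNF, 1 of the 27 was called higher at 24 h and 0 lower, beside 2.18% of all genes higher and 1.32% lower. This call was lost without 24 h replicate 2, 24 h replicate 3 or 24 h TNF replicate 1. At 72 h, beside 4.35% of all genes higher and 5.21% lower, 3 rose and 1 fell. Esrrb rose from 0.244 to 1.18 CPM (2.19 ± 0.58), Nr2e1, the stem cell receptor TLX, from 8.84 to 14.5 CPM (0.71 ± 0.19) and Rora from 146 to 213 CPM (0.55 ± 0.16). Nr4a3 fell from 3.25 to 1.33 CPM (-1.27 ± 0.30). Each of these 4 calls was lost without 72 h replicate 2. Those of Esrrb, Nr2e1 and Rora were also lost without the 72 h library numbered 4, that of Rora without 72 h replicate 1, those of Rora and Nr2e1 without 72 h TNF replicate 1, and those of Esrrb and Nr2e1 without 72 h TNF replicate 3. In edgeR's interaction test of TNF and time, which 0.458% of all genes passed, 0 of the 27 were called (2 at an unadjusted p under 0.05, 0 by DESeq2).

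**Figure D4:**
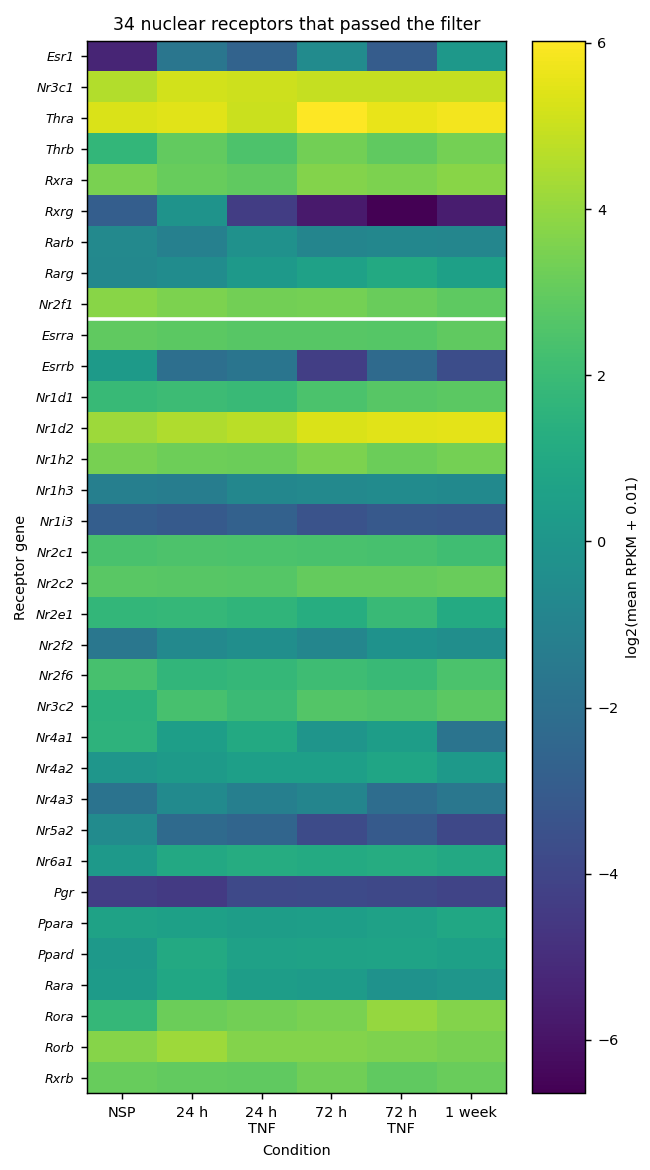
Mean level, as log2(RPKM + 0.01), of 34 of the 36 nuclear receptor genes that passed the filter (rows, the 9 described here above the white line; 2 of the others are not reported here) in the 6 conditions (columns); lighter is higher. Thra and Nr3c1 are among the brightest rows in every condition, and Rxrg and Esr1 vary most among the first 9.

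Genes around the receptors, in lists chosen with earlier results known, moved in both directions. The counts of these lists stand beside the following shares. Of all tested genes, 28.1% were called higher and 27.2% lower at 72 h against NSPs. With TNF, 2.18% were higher and 1.32% lower at 24 h, and 4.35% and 5.21% at 72 h. Of 6 tested genes of retinoid handling, 3 rose and 2 fell by 72 h against NSPs. Rdh10 and Aldh1a1, which make retinaldehyde and retinoic acid, rose by 3.36 ± 0.24 and 1.96 ± 0.27, while Fabp5, a carrier of retinoic acid, fell by 2.54 and Cyp26b1, which degrades it, fell by 1.73, from 0.785 to 0.254 CPM. With TNF, Aldh1a1 fell from 91.6 to 35.6 CPM at 24 h (-1.36 ± 0.26, adjusted p = 0.0052) and from 116 to 20.5 CPM at 72 h (-2.50 ± 0.27, adjusted p = 9.4e-06). Aldh1a3, a related enzyme, rose from 1.07 to 3.17 CPM at 24 h (1.57 ± 0.39, adjusted p = 0.0313). Of 6 tested retinoic acid targets, 2 rose and 1 fell by 72 h, Tgm2 (transglutaminase 2) by 2.69 ± 0.36, and 0 were called with TNF by edgeR at 24 h or 72 h (1 and 1 at an unadjusted p under 0.05, 0 and 1 by DESeq2, the latter Cyp26b1).

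Thyroid hormone handling counted 5 tested genes, of which 1 rose and 2 fell by 72 h. The transporters Slc7a5 and Slc16a10 fell by 3.24 and 2.16. Of 6 tested thyroid hormone targets, 3 rose and 1 fell: Hr, a corepressor of the thyroid hormone receptor, rose by 3.80 ± 0.35 and Dbp, a clock factor, by 1.85 ± 0.26, and Me1 (malic enzyme) fell by 0.71. With TNF at 72 h, Dio2, the enzyme that activates thyroid hormone, fell from 2.45 to 0.789 CPM (-1.63 ± 0.42, adjusted p = 0.0189) and Thrsp from 28.9 to 7.36 CPM (-1.98 ± 0.30, adjusted p = 0.00022). With TNF at 24 h, 0 genes of either list were called by edgeR (1 in each at an unadjusted p under 0.05, and 1 by DESeq2, the amino acid transporter Slc7a5).

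Glucocorticoid handling was tested in 7 genes, and 6 (85.7%) fell by 72 h with none rising, beside 27.2% of all tested genes lower and 28.1% higher. Hsd11b1, which regenerates active glucocorticoid, fell by 3.40, and the receptor's chaperone partner Fkbp5, also a target, fell by 2.84. Of 13 glucocorticoid targets, 4 rose and 5 fell. The metallothioneins Mt2 and Mt1 rose by 3.39 ± 0.30 and 3.33 ± 0.31, and Ddit4 fell by 1.18. With TNF at 24 h, Cdkn1a (p21) rose by 1.17 ± 0.25 and Zbtb16 fell by 0.84. At 72 h with TNF, Cdkn1a (1.35 ± 0.25), Dusp1 (1.02 ± 0.31) and Glul (0.54 ± 0.14) rose, and Mt1 (-1.23 ± 0.29), Mt2 (-0.90 ± 0.27) and Tsc22d3 (-0.68 ± 0.17) fell, so that the list moved both ways. With TNF, 0 of the 7 handling genes were called by edgeR at either time (0 and 2 at an unadjusted p under 0.05, 0 by DESeq2).

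Of 2 tested genes of oestrogen handling, 0 were called by edgeR against NSPs or with TNF (1 at an unadjusted p under 0.05, at 1 week, and 0 by DESeq2). Of 6 tested oestrogen targets, 1 rose and 2 fell by 72 h (Nrip1 up by 0.43, Ccnd1 down by 5.32 and Igfbp4 by 5.47 on the log2 scale), and with TNF at 72 h Ccnd1 rose by 1.34 ± 0.41 (adjusted p = 0.043). Among 16 coregulators, 4 rose and 4 fell by 72 h (25.0% each, near the shares of all tested genes). The coactivators Ppargc1b and Ncoa2 rose by 1.19 ± 0.35 and 0.74 ± 0.13, and Carm1 and Tbl1xr1 fell by 0.48 and 0.36. The coactivator Ncoa1 fell by 0.52 with TNF at 24 h, and 0 of the 16 were called with TNF at 72 h by edgeR (3 at an unadjusted p under 0.05, 0 by DESeq2). Median log2 changes of these lists at 72 h against NSPs ranged from -1.04 (glucocorticoid handling) to 0.50 (retinoid handling), beside 0.05 over all tested genes.

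Of the 15 calls of these list genes with TNF, 5 held without any 1 library: Aldh1a1 at both times, and Thrsp, Mt1 and Cdkn1a at 72 h. At 24 h, the call of Aldh1a3 was lost without any 1 untreated library or TNF replicate 1 or 3, that of Cdkn1a without untreated replicate 1 or 2 or TNF replicate 1, that of Zbtb16 without untreated replicate 2 or 3 or TNF replicate 1 or 2, and that of Ncoa1 without untreated replicate 1 or 3 or TNF replicate 2 or 3. At 72 h, Dusp1 and Ccnd1 lost it without any 1 untreated library or TNF replicate 2 or 3, Glul without untreated replicate 1 or 2 or TNF replicate 2 or 3, and Mt2 without untreated replicate 2 or 4 or any 1 TNF library. Dio2 lost it without untreated replicate 2 or TNF replicate 1 or 3, and Tsc22d3 without untreated replicate 2 or 4 or TNF replicate 1.

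Across the 18 libraries, which share their conditions, the profiles of the receptors were compared by Pearson's r of log2 CPM, given as a description. Among the 9, Esr1 and Thrb were most alike (r = 0.93), followed by Rxra and Thra (r = 0.82). The 3 genes of at least 1 CPM closest to Esr1 were Me3 (0.98), Arvcf (0.97) and Gm36356 (0.97), and those closest to Thrb were Daam2 (0.98), Atrn (0.97) and Gm973 (0.96). Nearest to Thra were Tbc1d9b (0.95), Cdc42ep4 (0.93) and Cadm4 (0.92), and nearest to Rxra were Fbxo21 (0.96), D17Wsu92e (0.92) and Lrrc45 (0.92). For Nr3c1 they were Pik3c2a (0.93), Usp9x (0.92) and Pdgfd (0.88), for Rarg Rin2 (0.95), Pim1 (0.93) and Pcdhb18 (0.93), and for Nr2f1 Usp11 (0.96), Soga3 (0.95) and St6gal2 (0.93). Among the 3 closest to Rxrg were Mtfr1l (0.89) and Adamts9 (0.88), on the few reads it had. Rarb had no close match, with Gm26804 at 0.73, Slc25a26 at 0.61 and Sra1 at 0.61.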

How the data were processed

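Gene expression was measured by stranded, ribosome-depleted total RNA sequencing in 18 libraries, grouped by their labels into 6 conditions of 3. The authors deposited raw counts per gene without normalization; per the labels the reads were checked with FastQC, trimmed with Trim Galore, aligned with STAR to mm10, sorted with SAMtools and counted with featureCounts, and versions and the strand setting are not given in the sources used here. The RNA quality differed between libraries per the labels, down to low values in the study's methods, and is not given for each, so its effect was not tested.

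All 54838 genes of the table were read, of which 54723 had a symbol in the reference table. Library totals ranged from 12509693 to 22549627 (median 16794798), so that low genes carry a large counting error. All pairs of replicates differed by more than counting error (chi-square over degrees of freedom 3.71 to 55.4). The 72 h column numbered 4 was assigned to its condition and not to a replicate. edgeR 4.0.16 (R 4.3.3, limma 3.58.1) fitted its quasi-likelihood model with TMM factors to the 20067 genes passing filterByExpr, with 1 mean per condition and Benjamini-Hochberg adjustment over all of them (threshold 0.05, biological coefficient of variation 0.18). Log2 CPM used a prior count of 2. RPKM used union exon lengths of GENCODE M21. Ratios with at most 3 reads in each library of a condition used pooled counts with an exact (Clopper-Pearson) interval. The fit was tested on simulated data. Python 3.11.15, numpy 2.4.6, pandas 2.3.3 and matplotlib 3.10.9 were used for summaries.

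The members and lists were chosen with earlier results of these data known. Named genes were all 9 receptors, every other nuclear receptor or pathway gene called with TNF, the 3 largest rises and falls among other receptors at 72 h against NSPs (mean of at least 1 CPM), the 2 largest called changes in each direction of each list in that comparison, the 3 closest profiles per receptor, and Nfkbia. Some genes of the lists and of this rule are counted but not reported here by name. Further genes named were chosen after their values were seen. Alternatives were DESeq2 1.42.0, RLE factors, other filters, a fit of only the groups compared, a replicate block and leaving out each library.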

Additional observations from a re-analysis of the deposited data

Results flagged for a closer look

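None of the 9 receptor genes had a TNF effect tested between the times, and no group had enough libraries for a test of single outlying libraries. Among the genes checked beside them, the TNF effect at 72 h was below that at 24 h by edgeR's interaction test for Ccl2 (log2 difference -5.23 ± 0.57, adjusted p = 0.00025), Cxcl10 (-3.84 ± 0.82, adjusted p = 0.0444), both chemokine genes induced by TNF, and S100b, an astrocyte marker (-1.32 ± 0.26, adjusted p = 0.0309). Ccl2 went from 0.251 to 26.0 CPM at 24 h and from 1.37 to 4.03 CPM at 72 h, so that its untreated level also differed between the times. Cxcl10 went from 0.109 CPM (4 reads in all) to 6.33 CPM at 24 h and from 2.47 to 10.9 CPM at 72 h, so that its level with TNF was not lower at 72 h and its untreated level was higher. No alternative fit is given here for the calls of Ccl2, Cxcl10 and S100b. The number of genes called in this test varied widely with the setting, as given below.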

How the results depend on the processing

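Depth limits the low receptors: Rxrg had at most 1 read per library at 72 h and 1 week, and Esr1 at most 6 in NSPs. The calls of Esr1, Thrb and Nr3c1 named in the report kept their direction and side of the threshold in every alternative in which they were tested, and Thra and Rarg did so at 72 h against NSPs.

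The cause of the following differences was not tested, except that fewer genes enter a stricter filter and that, with no filter, each gene took the spread of the trend. With at least 10 counts in every library, which drops Esr1 and Rxrg, 3 list genes were called with TNF at 24 h (5 in the report) and 56 genes in the test of whether the TNF effect depended on time (92), called the interaction here. With no filter, 0 receptors were called from 72 h to 1 week (1), 1, 3 and 7 other nuclear receptors from 72 h to 1 week and with TNF at 24 h and 72 h (0, 1 and 4), 16 and 14 list genes from 72 h to 1 week and with TNF at 24 h (8 and 5), and 2032, 1374 and 554 genes from 72 h to 1 week (1331), with TNF at 24 h (703) and in the interaction. A filter of 5 counts in total, added after the data were seen, gave 0 receptors from 72 h to 1 week. DESeq2 gave 246 genes in the interaction. A fit of only the groups compared gave 1 other nuclear receptor and 2001 genes from 72 h to 1 week, 0 other nuclear receptors with TNF at 24 h, 1277 genes with TNF at 72 h (1919) and 38 in the interaction.

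Whether same-numbered libraries shared more than a number is not known. No comparison had all correlations of their deviations above 0.1 (range -0.42 to 0.30). With 3 libraries per condition, and NSPs not compared with the TNF conditions, this cannot exclude a shared origin. With the replicate block, 1 other nuclear receptor was called from 72 h to 1 week, and 65 genes in the interaction. With the replicate block and the 72 h library numbered 4 unpaired, 0 receptors were called from 72 h to 1 week, 1 other nuclear receptor with TNF at 72 h, 10 list genes from 24 h to 72 h (19), 5 from 72 h to 1 week, 2 with TNF at 24 h and 4 with TNF at 72 h (10), and 3286 (4970), 617, 986 and 24 genes from 24 h to 72 h, from 72 h to 1 week, with TNF at 72 h and in the interaction.

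Leaving out 1 library, receptors called ranged from 1 (without 24 h replicate 1) to 3 from 24 h to 72 h and from 0 to 1 from 72 h to 1 week. Other nuclear receptors ranged from 4 to 7 from 24 h to 72 h, 0 to 2 with TNF at 24 h and 1 to 4 with TNF at 72 h. List genes ranged from 12 to 19 and 4 to 8 in the 2 later steps, and 2 to 4 and 4 to 10 with TNF at 24 h and 72 h. Genes called ranged from 610 to 1373 from 72 h to 1 week, 360 to 741 and 965 to 2922 with TNF at 24 h and 72 h, and 25 to 133 in the interaction. Of untreated differences that were not called or, for Rxrg, not tested, these changed sign without 1 library: Thra (-0.035 to 0.283) and Rarg (-0.090 to 0.483) at 24 h against NSPs, Rarb at 1 week against NSPs (-0.229 to 0.020), and, from 72 h to 1 week, Nr3c1 (-0.080 to 0.107), Thrb (-0.0081 to 0.145), Rxrg (-1.91 to 1.77), Rarb (-0.029 to 0.221) and Rarg (-0.230 to 0.0050). The TNF differences of Nr3c1 at 24 h (-0.203 to 0.0073) and 72 h (-0.080 to 0.099) and of Rarb at 72 h (-0.224 to 0.355) also changed sign.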
